A study of Drosophila melanogaster with 35 samples.

Results

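The comparison described here set 4 arrays of irradiated flies against 4 arrays of flies kept only in sucrose vials (the group named Sugar), which together make 8 of the 35 arrays of the series. The arrays were chosen by the titles of their samples. Both groups were 11 days old when RNA was taken and had spent their last 2 days in vials of 1% sucrose, so that age and diet were matched and the radiation was what differed by design. Irradiated and Sugar flies alike were male progeny of Oregon-R and of a w[1118] line that holds the insertion P{w+ rtTA}(3)[E2] over the TM3 balancer, and all carried 1 copy of the insertion and no balancer. The irradiated flies received 5666 rads per hour for 16 hours from a Cesium source while still in vials of standard food, and were then moved to the sucrose vials. Each array holds the RNA of 1 vial of 25 whole flies, and vials were processed separately. Values of 4 arrays of flies fed hydrogen peroxide in the same kind of sucrose vial for 2 days, and of 4 Stress controls aged 9 days on standard food, are given beside the results where they help to place a level. The hydrogen peroxide flies were also 11 days old, and both of these groups had the same cross and sex.

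Ionizing radiation breaks both strands of DNA and also damages bases, lipids and proteins through reactive oxygen. In flies, the tumor suppressor p53 is activated by such damage and raises the transcription of genes for end joining, for the trimming of broken ends and for cell death. Broken ends are held by the Ku heterodimer and sealed by DNA ligase IV, while single-stranded DNA is covered by replication protein A. Most cells of the adult fly no longer divide, the exceptions lying mainly in the gut and in the gonad.

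The values are MAS5 signals of probe sets on the Affymetrix DrosGenome1 array, quantile normalized over all 35 arrays and given below in these normalized units. A log2 fold change is the limma coefficient of ionizing radiation minus Sugar on the scale log2(signal + 38.6), with its standard error, and understates the change of dim probe sets. The addition is the 10th percentile of all normalized values. Each standard error rests on a spread pooled over the 8 groups of all 35 arrays. A gene was called higher or lower when its adjusted p (Benjamini-Hochberg over 10845 genes, limma) was below 0.01 and its fold change at least 1.5. No sequence of a probe or promoter was used here.

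The deposited Sugar arrays had 2% trimmed mean signals between 107 and 167, whereas each irradiated array had 1000, so this difference in scaling and the radiation cannot be told apart before normalization. Ionizing radiation replicate 1 stood apart from its group. Its 3'/5' signal ratio for actin, a measure of RNA integrity, was 7.44, against 1.79, 1.84 and 1.89 on the other irradiated arrays and 2.65 to 3.51 on the Sugar arrays. Its signal for the 18S rRNA control probe sets was 2320, against 210.1, 292 and 250.4 on the other irradiated arrays and 2223 to 3796 on the Sugar arrays. Its correlations with the other irradiated arrays were 0.955 to 0.959. The largest correlation among those others was 0.980. Control signal and RNA integrity therefore moved in part with the groups, and their part in the results was not tested. On the first principal component of the 8 arrays, which held 52.9% of the variance, the irradiated arrays lay at -32.9 to -26.4 and the Sugar arrays at 29.4 to 30.1.

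**Figure D1:**
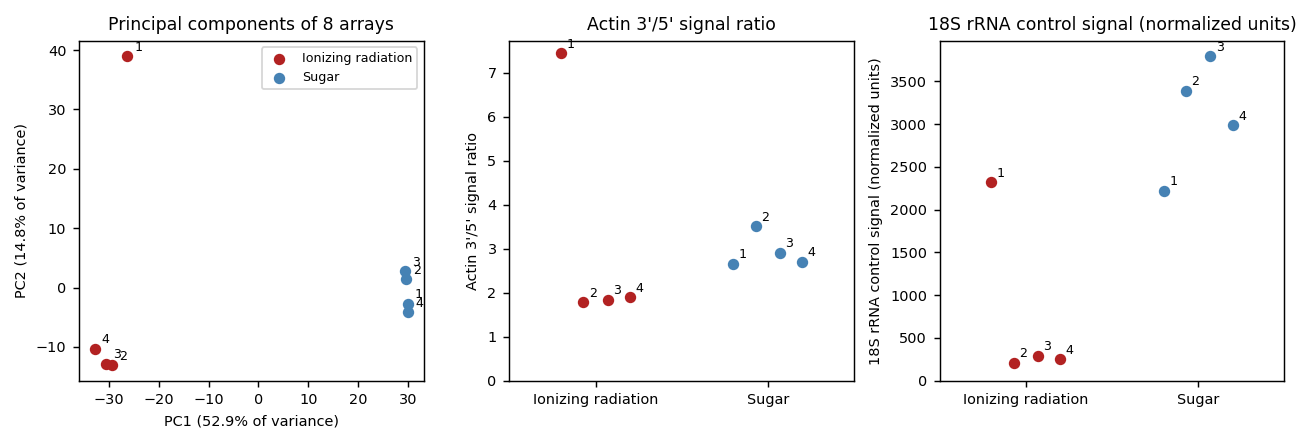
Each point is 1 array, with its replicate number. The left panel plots the first 2 principal components of the 8 arrays (52.9% and 14.8% of the variance), the middle panel the actin 3'/5' signal ratio and the right panel the mean normalized 18S rRNA control signal, with irradiated arrays in red and Sugar arrays in blue. Irradiated replicate 1 lies at 39.0 on the second component, where the other 3 irradiated arrays lie at -13.1 to -10.3.

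Of the 10845 genes, 691 were called higher in irradiated flies (6.37%) and 897 lower (8.27%). The median log2 fold change over all genes was 0.02. Of the 1588 called genes, 1527 had arrays that did not overlap between the groups. Among all genes tested, the 4 irradiated arrays lay above all 4 Sugar arrays for 1649 (15.2%) and below them for 1750 (16.1%), counts that include genes under the fold limit. Changes of at least 4-fold were found for 42 genes called higher and 72 called lower. Without irradiated replicate 1, the counts were 663 higher and 880 lower, and 577 and 804 of these genes were also called with all arrays.

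The 10 genes with the largest rise were CG14245, Hsp70, Gart, Nmdmc, CG10383, Arc2, CG5966, CG5391, Pfas and RnrL. CG14245 had 31429.8, 26480.2, 28934 and 26703 units on the irradiated arrays, against 2266, 1600.2, 2319 and 1367 on the Sugar arrays, a log2 fold change of 3.91 ± 0.14 (SE, n = 4 each, adjusted p = 1.3e-19, limma). The groups lie far apart, and the highest Sugar array, replicate 3, is well below the lowest irradiated array, replicate 2. CG10383 rose by 3.45 ± 0.16, CG5391 by 3.15 ± 0.34 and CG5966 by 3.36 ± 0.26 on the same scale. Arc2 and its relative Arc1 encode proteins that derive from a retrotransposon Gag and form capsids, which for Arc1 carry RNA between cells. Arc2 had 827, 999.8, 1104 and 1108 units in irradiated flies, against 33.7, 51.3, 51.3 and 103 in Sugar flies (log2 fold change 3.45 ± 0.30, adjusted p = 1.7e-10). Arc1 had 1738, 6342, 5789.9 and 4246 against 393, 452, 457 and 689 units (log2 fold change 2.96 ± 0.37, adjusted p = 1.8e-07), and irradiated replicate 1 had the lowest of the irradiated values. Both Arc genes were separated between the groups on all arrays.

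Genes for handling broken and single-stranded DNA rose after irradiation while most of the other repair genes measured were not called. Of 42 DNA repair and checkpoint genes, 8 were called higher, where 6.37% of all genes were, and 0 lower, where 8.27% were, with a list median of 0.12 beside 0.02 for all genes. Irbp, the fly Ku70, had 922, 736, 833 and 868 units on the irradiated arrays, against 289.7, 183, 109 and 216 on the Sugar arrays. The log2 fold change was 1.94 ± 0.38 (adjusted p = 1.8e-04), with no overlap between groups and a wide spread among the Sugar arrays. Its partner Ku80 had 583, 608, 629 and 695 against 153, 191, 142 and 225 units, a log2 fold change of 1.64 ± 0.16 (adjusted p = 2.7e-09). DNAlig4, which seals the joined ends, had 609, 648, 691 and 776 against 208, 228, 256 and 229 units (log2 fold change 1.42 ± 0.17, adjusted p = 8.4e-08). These 3 end-joining genes were higher in irradiated flies with fold changes of 3.83, 3.12 and 2.67, each with no overlap between the groups.

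The nuclease subunit mre11 and the ATPase rad50, which trim and tether broken ends together with nbs, also rose. For mre11 the signals were 1373, 1525, 1484 and 1618 in irradiated flies, against 502, 428, 437 and 442 in Sugar flies (log2 fold change 1.65 ± 0.15, adjusted p = 2.4e-10). For rad50 they were 1892, 1478, 1673 and 1872 against 732, 507, 574 and 1017 (log2 fold change 1.28 ± 0.22, adjusted p = 4.3e-05). The third subunit, nbs, was not called at 0.23 ± 0.25 (adjusted p = 0.57). PolZ1, the catalytic subunit of the polymerase that copies past damaged bases, rose by 1.46 ± 0.18 (adjusted p = 1.2e-07), Xpc, which recognizes damage for nucleotide excision repair, by 0.89 ± 0.17 (adjusted p = 9.7e-05), and RfC4, a subunit of the clamp loader, by 0.81 ± 0.12 (adjusted p = 3.5e-06). The alkylguanine transferase agt, not on the list, had 1008, 1174, 1069 and 1370.4 units in irradiated flies, against 231, 207, 201 and 255 in Sugar flies (log2 fold change 2.18 ± 0.14). DNAlig4, rad50, Xpc, RfC4 and agt were named after their values were seen. The damage kinases and p53 itself were not called, with log2 fold changes of -0.17 for tefu (the fly ATM), 0.02 for mei-41 (ATR), -0.20 for lok (Chk2), -0.20 for grp (Chk1) and 0.33 for p53.

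Transcripts of RnrL and of the replication protein A subunits rose as well. RnrL, the large subunit of ribonucleotide reductase, had 1231, 975, 920.1 and 756 units on the irradiated arrays, against 59.3, 33.2, 217 and 92.6 on the Sugar arrays, a log2 fold change of 3.01 ± 0.43 (adjusted p = 2.2e-06). The highest Sugar array, replicate 3, was still below the lowest irradiated array. All 3 subunits of replication protein A were called higher. RPA1 had 4267, 4887, 5452 and 5472 against 1063, 1101, 1210.4 and 1228 units (log2 fold change 2.08 ± 0.10, adjusted p = 4.4e-16), RPA2 rose by 1.77 ± 0.26 and RPA3 by 1.12 ± 0.11. These subunits were chosen after their values were seen, and a second, dim probe set of RPA1 gave 0.40 with an adjusted p of 0.30 over all probe sets. Of 22 replication and cell cycle genes, 4 were called higher, where 6.37% of all genes were, and 1 lower, where 8.27% were. The list median was 0.15, and most members were not called, as in the repair list. Besides RnrL, dpa (the Mcm4 helicase subunit) had 393, 288, 229 and 335 units in irradiated flies, against 30.8, 35.7, 120.5 and 50.6 in Sugar flies (log2 fold change 1.90 ± 0.31). PCNA, the sliding clamp of replication forks, had 0.56 (adjusted p = 0.0037) and CycB, a mitotic cyclin, had 0.03 (adjusted p = 0.93), neither called. Orc1 (1.02) and Rbf (0.87) were called higher and CycB3 (-0.80) lower. Without irradiated replicate 1, 2 genes of this list were called higher. Orc1 lost its call in 5 of 8 fits that left out 1 array (irradiated replicate 1, 3 or 4, or Sugar replicate 1 or 4, log2 fold changes 0.80 to 1.22 over the 8 fits), Rbf in 3 (irradiated replicate 1 or 3, or Sugar replicate 1, 0.74 to 0.98) and CycB3 in 1 (irradiated replicate 4, -0.96 to -0.68).

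Of 13 apoptosis genes and p53 targets, 1 was called higher, where 6.37% of all genes were, and 0 lower, where 8.27% were. The list median was 0.14. The death genes rpr and hid, and Drice, Xrp1 and Diap1, were planned for this list but matched no gene tested. The count therefore does not cover them, and Xrp1 and Diap1 are given below outside the counts. The gene called was Corp, a p53 target whose product restrains p53 in flies. Its signals were 736, 423, 638 and 525 in irradiated flies, against 191, 239, 172 and 199.9 in Sugar flies (log2 fold change 1.35 ± 0.17, adjusted p = 1.7e-07). The death gene grim had 0.53 ± 0.37 (adjusted p = 0.33), the apoptosome scaffold Dark 0.88 ± 0.30 (adjusted p = 0.027), and the initiator caspase Dronc 0.45 ± 0.33 (adjusted p = 0.35). Without Sugar replicate 1, 2 genes of this list were called higher. A p that misses the threshold does not show that these genes were unchanged. Of 14 JNK and JAK/STAT genes, 2 were called higher, where 6.37% of all genes were. Of the 2, Gadd45, a growth arrest and damage-inducible gene, had 1074, 1164, 1119 and 1486 against 506, 392, 482 and 440.0 units (log2 fold change 1.33 ± 0.15, adjusted p = 2.0e-08). The other, the transcription factor Ets21C (1.01 ± 0.28), had irradiated values of 22.3, 59.7, 153 and 236 that overlapped the Sugar values of 25.0, 35.7, 35.1 and 15.8, and it lost its call in 6 of 8 fits that left out 1 array (irradiated replicate 3 or 4, or any Sugar replicate, 0.66 to 1.39).

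The hydrogen peroxide arrays allow a direct check of which of these rises differ from those of another oxidizing stress in the same vials. These arrays have the same scaling as the irradiated ones. In that comparison, which was added after the data had been seen, 546 genes were higher with radiation (5.03%) and 545 lower (5.03%) at the same thresholds. Of the 42 DNA repair genes, 9 were higher with radiation and 0 lower. Set against the same Sugar arrays, peroxide-fed flies had 2 of the 42 called higher, where 6.56% of all genes were, and 0 lower, where 9.20% were. RnrL averaged 970.4 ± 197 units with radiation, 124 ± 94.6 with hydrogen peroxide and 101 ± 81.3 with Sugar (SD, n = 4 each), a log2 difference between radiation and peroxide of 2.78 ± 0.43 (adjusted p = 1.7e-05). Irbp averaged 839.8 ± 78.5, 229 ± 104 and 199 ± 74.9 units in the same order, with a difference from peroxide of 1.82 ± 0.38 (adjusted p = 6.2e-04). For RPA1 the means were 5019 ± 570.2, 1621 ± 55.9 and 1151 ± 81.1 units and the difference 1.60 ± 0.10 (adjusted p = 9.1e-13). The irradiated arrays lay above every peroxide and Sugar array for these 3 genes, whereas the peroxide arrays overlapped the Sugar arrays for RnrL and Irbp and lay somewhat above them for RPA1. The difference from peroxide was also past the threshold for Ku80 (1.30 ± 0.16), RPA2 (1.27 ± 0.26), DNAlig4 (1.22 ± 0.17), RfC4 (1.01 ± 0.12), mre11 (1.00 ± 0.15), agt (1.00 ± 0.14), PolZ1 (0.96 ± 0.18), rad50 (0.92 ± 0.22) and RPA3 (0.78 ± 0.11). Leaving out 1 irradiated or peroxide array at a time changed the call of rad50 in 4 of 8 fits (irradiated replicate 1 or 4, or peroxide replicate 3 or 4, differences of 0.83 to 1.01 over the 8) and of none of the other genes just named. Xpc (0.25 ± 0.17, adjusted p = 0.32) and Corp (0.33 ± 0.17, adjusted p = 0.17) did not pass. Corp had 426, 396, 494 and 465 units with peroxide, which overlap the irradiated values.

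**Figure D2:**
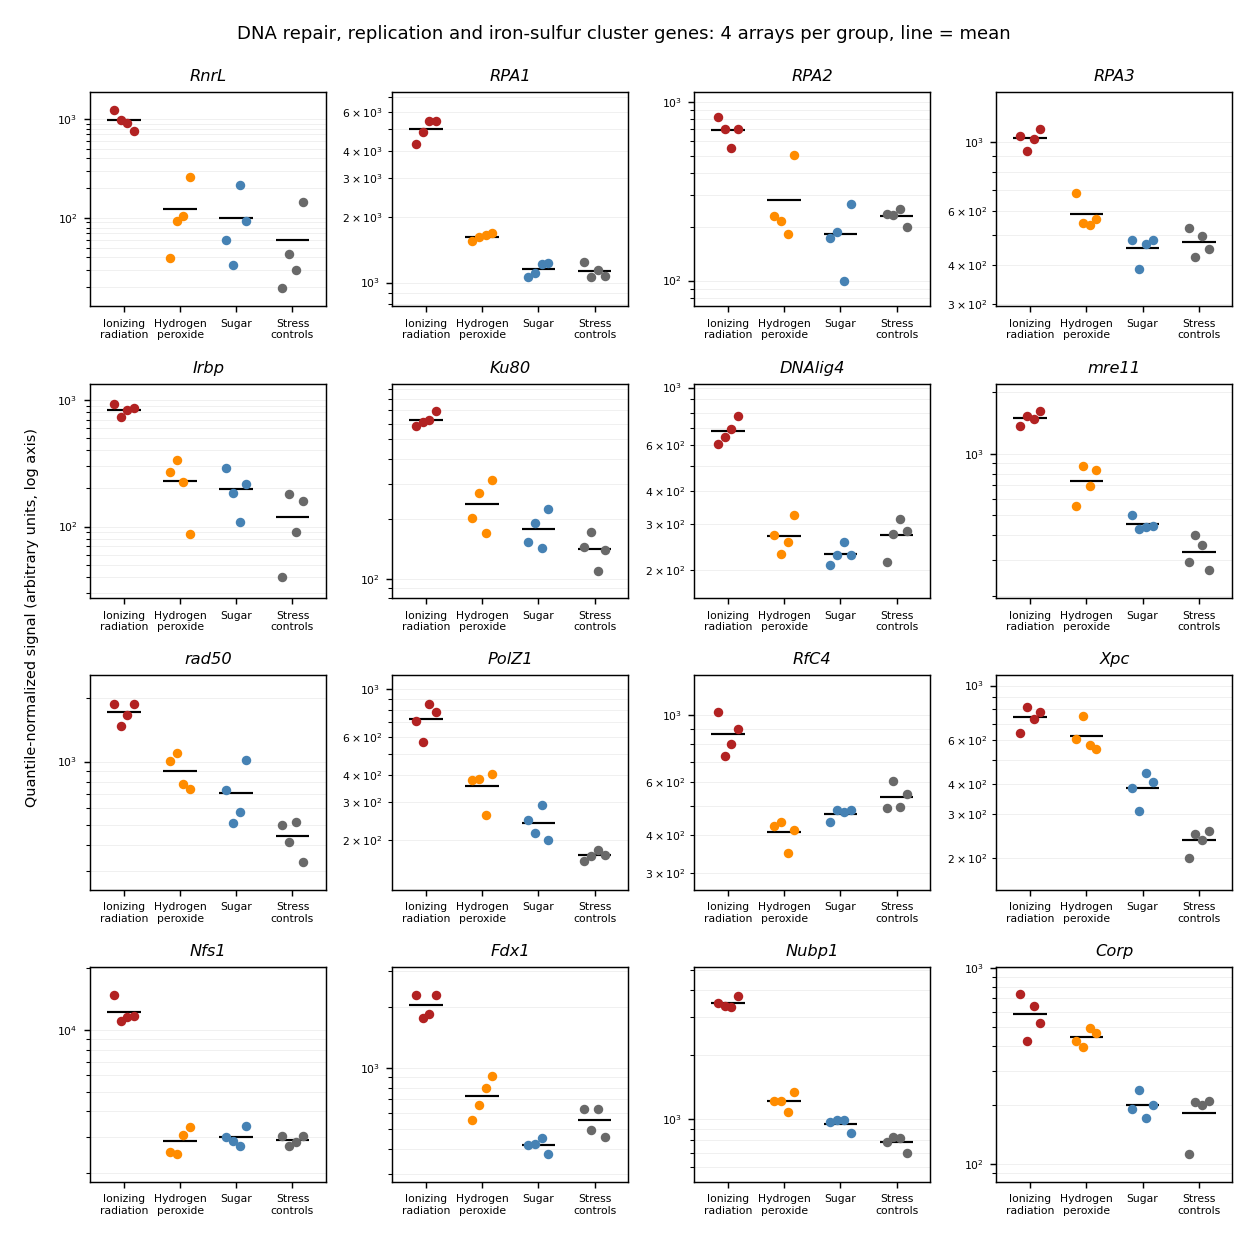
Each panel plots 1 gene on a log axis of quantile-normalized signal, with 1 point per array for irradiated (red), hydrogen peroxide (orange), Sugar (blue) and Stress control (grey) flies and the group mean as a line. For RnrL, RPA1, Irbp, Ku80, DNAlig4 and Nfs1 all 4 irradiated arrays lie above every array of the other 3 groups, while for Corp the irradiated and peroxide arrays overlap.

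Genes that build iron-sulfur clusters, which serve as cofactors of several DNA polymerases, helicases and glycosylases as well as of the respiratory chain, were seen to rise and were then gathered into a list of 18, of which 6 were called higher and 0 lower. Over all genes, 6.37% were called higher and 8.27% lower. The list was made after the values had been seen, so its count is a description. Nfs1, the cysteine desulfurase that supplies the sulfur, had 14859, 11005, 11585 and 11717 units in irradiated flies, against 3008, 2872, 2719.7 and 3392 in Sugar flies (log2 fold change 2.02 ± 0.10, adjusted p = 3.4e-16). A further probe set that Nfs1 shares with its chimeric copy Qtzl gave 2.48 ± 0.22. Fdx1, a mitochondrial ferredoxin, rose by 2.18 ± 0.16, the cytosolic assembly scaffold Nubp1 by 1.83 ± 0.10 and its partner Nubp2 by 0.79 ± 0.19. CIAPIN1, which passes electrons to that machinery, rose by 1.07 ± 0.15 and bcn92, the small partner of the desulfurase, by 0.88 ± 0.15. The scaffold IscU had 0.51 ± 0.11 (adjusted p = 6.2e-04) and frataxin (fh) -0.02 ± 0.13 (adjusted p = 0.94), neither called. Against hydrogen peroxide, the differences were 2.09 ± 0.10 for Nfs1, 1.50 ± 0.10 for Nubp1, 1.45 ± 0.16 for Fdx1 and 0.79 ± 0.15 for bcn92, all past the threshold, and 0.45 ± 0.15 for CIAPIN1 and 0.24 ± 0.19 for Nubp2, which did not pass. Peroxide-fed flies had 2532, 2482, 3050.2 and 3367 units of Nfs1, which overlap the Sugar values.

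Most of the measured enzymes that build purines rose in irradiated flies. Of 10 purine enzymes, 6 were called higher, where 6.37% of all genes were, and 0 lower, where 8.27% were. The list median was 1.15. Gart, which encodes 3 enzyme activities of the pathway, had 12330.4, 14011, 13860.3 and 15672 units on the irradiated arrays, against 844, 1075, 1080.4 and 1011 on the Sugar arrays, a log2 fold change of 3.75 ± 0.12 (adjusted p = 6.6e-21). Pfas, the enzyme of the next step, had 26362, 26362, 25371 and 26982 against 2999, 2930.5, 3374 and 2699.7 units (log2 fold change 3.12 ± 0.12, adjusted p = 3.8e-19). In both genes the replicates of a group lie within a narrow band, far from the other group. Adsl rose by 1.44 ± 0.13, Adss by 1.39 ± 0.13, Paics by 1.28 ± 0.08 and Prps, which makes the ribose phosphate that starts the pathway, by 1.03 ± 0.15. The committing amidotransferase Prat had -0.08, its paralog Prat2 0.40, and ras and bur, the enzymes that lead to guanine nucleotides, 0.10 and 0.11, none of them called. The probe set shared by CG31381 and CG11089 (Atic, the last step to inosine monophosphate) had 7741, 8072, 11093 and 12301 units in irradiated flies, against 1277, 1009.8, 1241 and 998 in Sugar flies. It matches more than 1 gene and is in no count.

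Most folate and serine enzymes that feed carbon and nitrogen to purines rose as well. Of 11 serine and one-carbon enzymes, 8 were called higher, where 6.37% of all genes were, and 0 lower, where 8.27% were. The median was 0.94, and all 11 had a positive log2 fold change. Nmdmc, the mitochondrial enzyme that turns methylene- into formyl-tetrahydrofolate, had 11159.8, 14915, 12419.5 and 12648 units in irradiated flies, against 894, 1085, 1034 and 751 in Sugar flies (log2 fold change 3.72 ± 0.20, adjusted p = 5.0e-15). Shmt, which moves a carbon from serine to folate, had 10612, 10266, 9503 and 9309 against 1828, 1562, 1835 and 2047 units (log2 fold change 2.43 ± 0.19, adjusted p = 2.7e-11). The phosphoserine phosphatase aay had 11717, 11497, 13425 and 13860.3 against 2274, 2145, 2087 and 2403 units (log2 fold change 2.48 ± 0.11, adjusted p = 6.5e-17). None of these 3 genes overlapped between the groups. In the methyl cycle, Ahcy rose by 1.61 ± 0.15 and Gnmt by 1.24 ± 0.13, and the cytosolic folate enzyme pug rose by 0.94 ± 0.16. Paics, Prps, Gnmt and pug were named after their values were seen. Against hydrogen peroxide, 0 of the 10 purine enzymes differed in either direction at these thresholds, with a median difference of -0.12. Of the 11 serine and one-carbon enzymes, 0 were higher with radiation and 1 lower. Gart averaged 13968 ± 1366 units with radiation, 12454 ± 1785 with peroxide and 1002 ± 110.4 with Sugar, and the difference between radiation and peroxide was 0.17 ± 0.12 (adjusted p = 0.33). Pfas had a log2 difference from peroxide of -0.53 ± 0.12 (adjusted p = 0.001), under the fold limit.

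Hsp70, whose copies share probe sets and are treated as 1 gene, had 1453, 1284, 2896 and 3729 units on the irradiated arrays, against 124, 121, 92.6 and 100.0 on the Sugar arrays. The log2 fold change was 3.87 ± 0.36 (adjusted p = 6.0e-10), with replicates 3 and 4 higher than 1 and 2 in the irradiated group. A second probe set that also matches several copies gave 1.51. The small heat shock protein l(2)efl had 31255, 33540.4, 29557 and 32269.5 against 4928, 4824, 5933 and 4839 units, a log2 fold change of 2.62 ± 0.12 (adjusted p = 1.3e-16). The co-chaperone stv rose by 1.51 ± 0.19 (adjusted p = 1.4e-07). These were the 3 called of 8 inducible heat shock genes, with 0 lower, beside 6.37% higher and 8.27% lower of all genes. The list median was 0.46. The other 5 members had log2 fold changes between -0.53 (Hsp27) and 0.48 (Hsp68), and none of them was called. Hsp22, Hsp23, Hsp67Ba, Hsp67Bc and Hsp83 were planned for this list but matched no gene tested. Values of Hsp22, Hsp67Bc and Hsp83 are given below outside the counts. Against hydrogen peroxide, l(2)efl was higher with radiation (1.03 ± 0.12, adjusted p = 2.0e-07), whereas Hsp70 did not differ past the threshold (-0.30 ± 0.36, adjusted p = 0.61). Of the 8 genes, 2 were higher with radiation than with peroxide and 3 lower.

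Of 27 proteasome subunits, 4 were called higher, where 6.37% of all genes were, and 0 lower, where 8.27% were. The median was 0.33, and 26 of 27 were positive. Rpt4 had 3514, 2287, 2185 and 2287 units in irradiated flies, against 1258, 1462, 1142 and 1393 in Sugar flies (log2 fold change 0.92 ± 0.12), and irradiated replicate 1 was the highest of its group. Without that array, 2 subunits were called higher, near the 6.37% of all genes, and 1 lower. Of 9 chaperonin subunits, 2 were called higher, where 6.37% of all genes were, and all 9 were positive with a median of 0.51. Of the 2, CCT5 rose by 1.10 ± 0.13. The other, CCT3 (0.73 ± 0.21), lost its call in 7 of 8 fits that left out 1 array (every array but Sugar replicate 4, 0.58 to 0.85). Of 21 autophagy genes, with a median of 0.55, 7 were called higher, beside 6.37% of all genes, and 0 lower, beside 8.27%. Among them, Atg18b had 539, 1148, 917 and 1247 units in irradiated flies, against 285, 313, 221 and 227 in Sugar flies (log2 fold change 1.69 ± 0.25, adjusted p = 2.9e-06). Atg9, the membrane protein of the forming autophagosome, rose by 1.18 ± 0.12, Atg18a by 1.15 ± 0.17, the initiating kinase Atg1 by 0.98 ± 0.17 and the cargo receptor ref(2)P by 0.92 ± 0.11. Of 11 endoplasmic reticulum chaperone and unfolded protein response genes, 0 were called, although 1 was called higher without irradiated replicate 2. Those with the smallest adjusted p were ERp60 (-0.46 ± 0.10) and Herp (-0.48 ± 0.15).

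**Figure D3:**
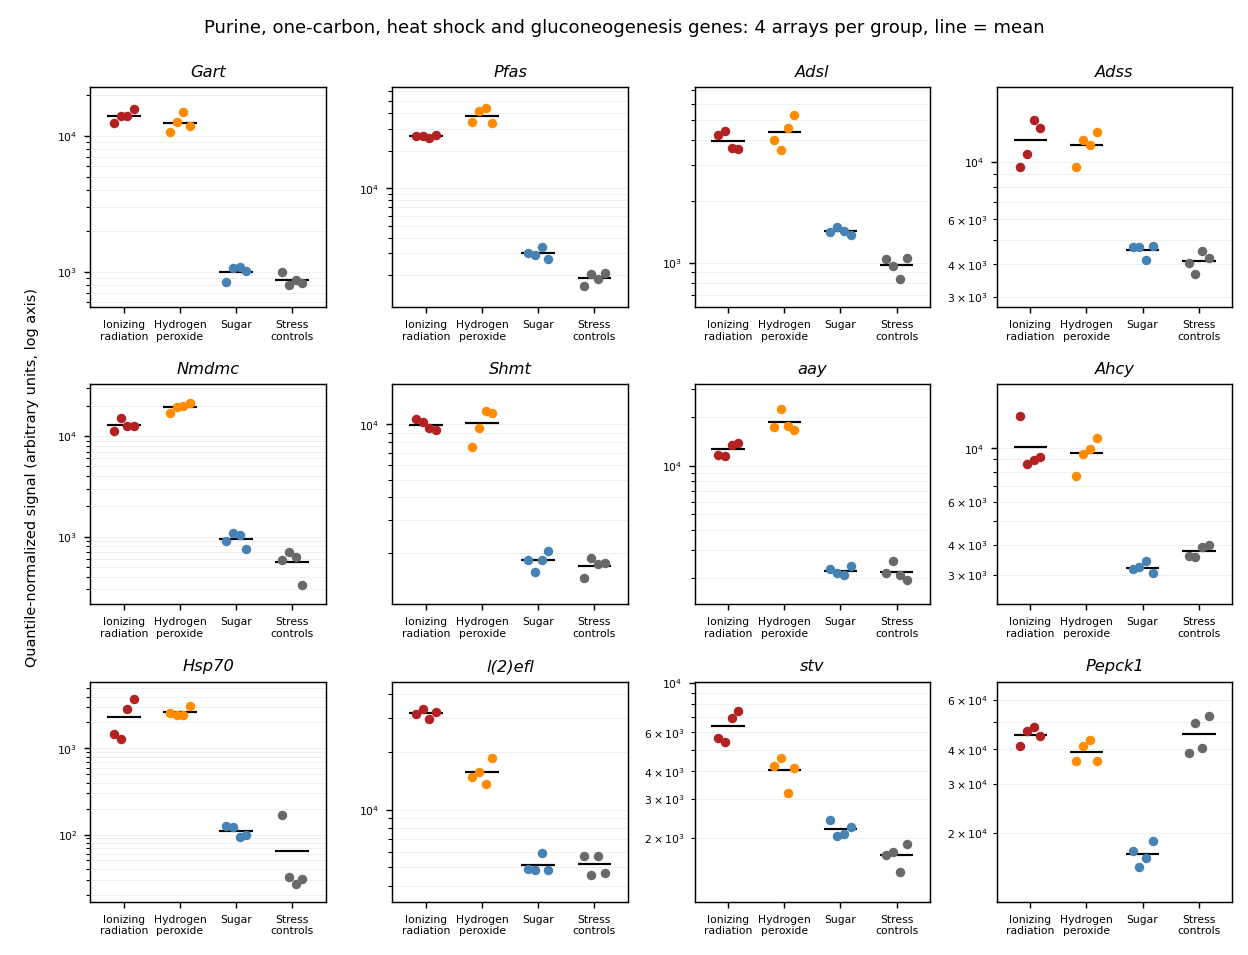
Each panel plots 1 gene on a log axis of quantile-normalized signal, with 1 point per array and the group mean as a line, for irradiated (red), hydrogen peroxide (orange), Sugar (blue) and Stress control (grey) flies. The irradiated and peroxide arrays of Gart, Shmt and Ahcy overlap, far above the Sugar arrays, and for l(2)efl the irradiated arrays lie above the peroxide arrays.

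Detoxification genes were called in both directions. Of 36 glutathione S-transferases, 6 were called higher, where 6.37% of all genes were, and 4 lower, where 8.27% were. The list median was -0.12. GstD2 had 1297, 837, 1251 and 1967 units in irradiated flies, against 357, 229, 341 and 312 in Sugar flies (log2 fold change 1.94 ± 0.18, adjusted p = 7.3e-10), and peroxide-fed flies had more than irradiated ones (3456 ± 688 units, difference -1.38 ± 0.18). GstE6 rose by 1.21 ± 0.11, while GstE10 (-1.94 ± 0.22) and GstE3 (-0.99 ± 0.08) fell. GstD1, the best studied member of its cluster, had a coefficient of 0.34 ± 0.08 (adjusted p = 8.3e-04), with all irradiated arrays above all Sugar arrays but under the fold limit. Of 81 cytochrome P450 genes, 6 were called higher, near the 6.37% of all genes, and 19 lower, where 8.27% of all genes were. The list median was -0.17. Cyp4e3 rose by 2.07 ± 0.18 and Cyp4ac3 by 1.86 ± 0.16, while Cyp4d14 fell by 1.94 ± 0.11 and Cyp28d1 by 1.66 ± 0.13 on the log2 scale. Of 14 antioxidant genes, 2 were called in each direction, beside 6.37% higher and 8.27% lower of all genes. Gtpx, a glutathione peroxidase family member, rose by 0.96 ± 0.11 and the thioredoxin reductase Trxr1 by 0.67 ± 0.09. The glutathione synthesis subunit Gclm fell (-0.98 ± 0.09), as did the mitochondrial peroxiredoxin Prx3 (-0.63 ± 0.13), which lost its call in 3 of 8 fits that left out 1 array (irradiated replicate 4, or Sugar replicate 2 or 4, -0.72 to -0.51). The metallothionein MtnC had 3918, 3008, 2596 and 3012 units in irradiated flies, against 15744, 12168, 15812 and 23099.5 in Sugar flies (log2 fold change -2.38 ± 0.20, adjusted p = 1.1e-10).

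The antifungal peptide Drs had 12301, 4942, 5821 and 5811 units in irradiated flies, against 1918, 1886, 1924 and 1724 in Sugar flies (log2 fold change 1.83 ± 0.29, adjusted p = 7.3e-06), with irradiated replicate 1 far above the other irradiated arrays. The related Drsl5 fell (-1.76 ± 0.18), and these were the 2 called of 8 antimicrobial peptide genes, of which 6 were positive, with a median of 0.82. Of 26 recognition and NF-kappaB signaling genes, 4 were called higher, where 6.37% of all genes were, and 3 lower, where 8.27% were. The NF-kappaB factor Rel rose by 0.82 ± 0.14, cact, which inhibits the NF-kappaB factors of the Toll pathway, by 0.99 ± 0.11 and the adaptor Tab2 by 1.01 ± 0.11. The fourth, the Toll factor dl (0.74 ± 0.20), lost its call in 5 of 8 fits that left out 1 array (irradiated replicate 2, 3 or 4, or Sugar replicate 3 or 4, 0.64 to 0.91). The Toll protease SPE (-1.64 ± 0.20), the fungal sensor GNBP3 (-1.47 ± 0.24) and the gut amidase PGRP-SC2 (-1.36 ± 0.21) fell. Of 9 Bomanin and immune-induced peptide genes 0 were called, with 1 called higher without Sugar replicate 3, and of 2 Turandot genes 0 were called.

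The gene with the largest fall among those counted was CG11892, known here only by number, and many digestive enzyme genes fell as well. CG11892 had 194, 161, 148 and 146 units on the irradiated arrays, against 3354, 2659, 3642 and 3029.9 on the Sugar arrays (log2 fold change -3.99 ± 0.21, adjusted p = 3.9e-15). Of 25 digestive serine proteases, 17 were called lower, where 8.27% of all genes were, and 0 higher, with a median of -1.39. All irradiated arrays lay below all Sugar arrays for 21 of the 25, and for 16.1% of all genes. Ser6 had 132, 125, 133 and 113 units in irradiated flies, against 1584, 1822, 1697 and 1800.2 in Sugar flies (log2 fold change -3.42 ± 0.19, adjusted p = 8.2e-15). Jon99Ci had 1126, 1538, 1224 and 653 against 8291, 7366, 8366 and 8924 units (log2 fold change -2.88 ± 0.17, adjusted p = 1.5e-14). The trypsins thetaTry (-2.50 ± 0.17) and betaTry (-2.27 ± 0.23) fell likewise, and so did the protease CG1304 (-3.50 ± 0.20), which was not on the list. Trypsin alphaTry (0.15 ± 0.16, adjusted p = 0.56) and the proteases Jon66Ci (0.01) and Jon66Cii (0.10) were not called.

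Of 19 carbohydrases, 12 were called lower, where 8.27% of all genes were, and 1 higher, where 6.37% were. The list median was -0.98. The maltase Mal-B1 had 182, 245, 172 and 258 units in irradiated flies, against 2993, 2366, 2229 and 2655 in Sugar flies, a log2 fold change of -3.37 ± 0.26 (adjusted p = 1.3e-11). Its neighbor in name, Mal-B2, was the 1 gene called higher (1.02 ± 0.17). Mal-A8 (-1.74 ± 0.20) and the mannosidases LManIII (-1.55 ± 0.27) and LManVI (-1.44 ± 0.29) fell. Npc2d, of a family of sterol-binding proteins, had 169, 21.9, 46.5 and 28.6 units in irradiated flies, against 872, 935, 1019 and 966 in Sugar flies (log2 fold change -3.42 ± 0.32), with irradiated replicate 1 the highest of its group. The gut lipase mag, which handles dietary fat and sterol esters, fell by 2.34 ± 0.24. Of 12 alkaline phosphatases, 5 were called lower, where 8.27% of all genes were, and 0 higher. These 5 were led by Alp4, with 502, 371, 354 and 255 units in irradiated flies, against 1719.6, 1758, 1702 and 2141 in Sugar flies (log2 fold change -2.22 ± 0.14). A further alkaline phosphatase by its synonym Alp3, phu, had 104, 22.8, 96.8 and 112 units in irradiated flies, against 928, 776, 825 and 861 in Sugar flies (log2 fold change -2.93 ± 0.33), and Sugar flies stood above the Stress controls for it (272 ± 32.9 units on average).

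Peroxide-fed flies also had low signals of many of these genes, and for some they were lower still. Against hydrogen peroxide, 11 of the 25 proteases were higher with radiation and 1 lower, and 11 of the 19 carbohydrases were higher and 2 lower. Jon99Ci averaged 1135 ± 367 units with radiation, 399 ± 94.0 with peroxide and 8237 ± 646 with Sugar, and the difference between radiation and peroxide was 1.39 ± 0.17 (adjusted p = 2.0e-07). Mal-B1 differed in the other direction, with 214 ± 43.9, 2220.5 ± 1041 and 2561 ± 338 units and a difference of -3.03 ± 0.26 (adjusted p = 4.5e-10). Ser6 was also lower with radiation (-1.76 ± 0.19, adjusted p = 3.8e-08). The Mal-B1 values of peroxide-fed flies, 3258, 917, 2823 and 1884 units, overlapped those of Sugar flies, and all lay above the irradiated values.

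In whole flies, fewer cells of a type and less RNA per cell cannot be told apart. The summed signal of the 25 proteases was 137012 to 167046 units on the irradiated arrays, against 232732 to 248246 on the Sugar arrays and 383598 to 420909.8 in Stress controls. Of 8 markers of gut epithelium cells, 1 was called lower (the transcription factor cad, -1.04 ± 0.15, for which a second probe set gave -0.21) and 0 higher, with a summed signal of 4618 to 5264 units on the irradiated arrays, against 7047 to 7855 on the Sugar arrays and 6185 to 6786 in Stress controls. The stem cell factor esg had -0.23 ± 0.29 (adjusted p = 0.62) and the enteroendocrine factor pros -0.76 ± 0.26 (adjusted p = 0.026), neither called. The part of cell loss in the fall of digestive genes was not tested. Of 8 Malpighian tubule markers, 5 were called lower, where 8.27% of all genes were, and 0 higher, where 6.37% were. The median was -0.95. The summed signal of these markers was 4407 to 6501 units on the irradiated arrays, against 12583 to 15326 on the Sugar arrays and 8921 to 9722 in Stress controls. The Stress controls thus lay between the irradiated and the Sugar flies. The potassium channel Irk3 had 143, 414, 407 and 119.8 units in irradiated flies, against 1763, 1437, 1719.6 and 1682 in Sugar flies (log2 fold change -2.61 ± 0.44, adjusted p = 2.8e-05). For salt, Sugar minus Stress controls was 1.05 (adjusted p = 0.0015). The transporters salt (-1.99 ± 0.21), Smvt (-1.85 ± 0.20) and NaPi-T (-1.05 ± 0.15) fell too, and Irk2 had -0.30 and Lkr -0.03, not called.

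The accessory gland, which makes seminal fluid proteins, also showed a fall. Of 19 accessory gland and ejaculatory duct genes, 15 were called lower, where 8.27% of all genes were, and 0 higher. The list median was -1.11. All irradiated arrays lay below all Sugar arrays for 18 of the 19, and for 16.1% of all genes. Acp36DE, which is needed for sperm storage in the mate, had 533, 601, 519.5 and 543 units in irradiated flies, against 4086, 3845, 3492 and 4026 in Sugar flies (log2 fold change -2.73 ± 0.15, adjusted p = 1.1e-14). Acp53Ea had 738, 912, 959 and 912 against 4674, 4879, 3957 and 4866 units (log2 fold change -2.33 ± 0.17, adjusted p = 2.7e-12), and Acp26Aa, which stimulates ovulation, fell by 2.21 ± 0.22. The summed signal of the 19 genes was 104106 to 120984 units with radiation, against 223473 to 238019 with Sugar and 294645 to 319340 in Stress controls. Of 30 testis and sperm genes, 2 were called higher, near the 6.37% of all genes, and 1 lower, with a median of 0.11. Their summed signal was 301620 to 341444 units with radiation, against 235624 to 259800.2 with Sugar and 284126 to 309829.5 in Stress controls, so that the Stress controls overlapped the irradiated arrays and lay above the Sugar arrays. The testis phosphatase twe fell (-1.49 ± 0.18), and the sperm protein genes Mst98Cb (0.80 ± 0.10) and Mst84Dd (0.68 ± 0.09) rose. Without irradiated replicate 1, 5 testis genes were called higher, and without irradiated replicate 2 or 3, 2 were called lower. Of 12 early germline genes 0 were called, and stwl had the smallest adjusted p among them (-0.49 ± 0.20, adjusted p = 0.072).

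**Figure D4:**
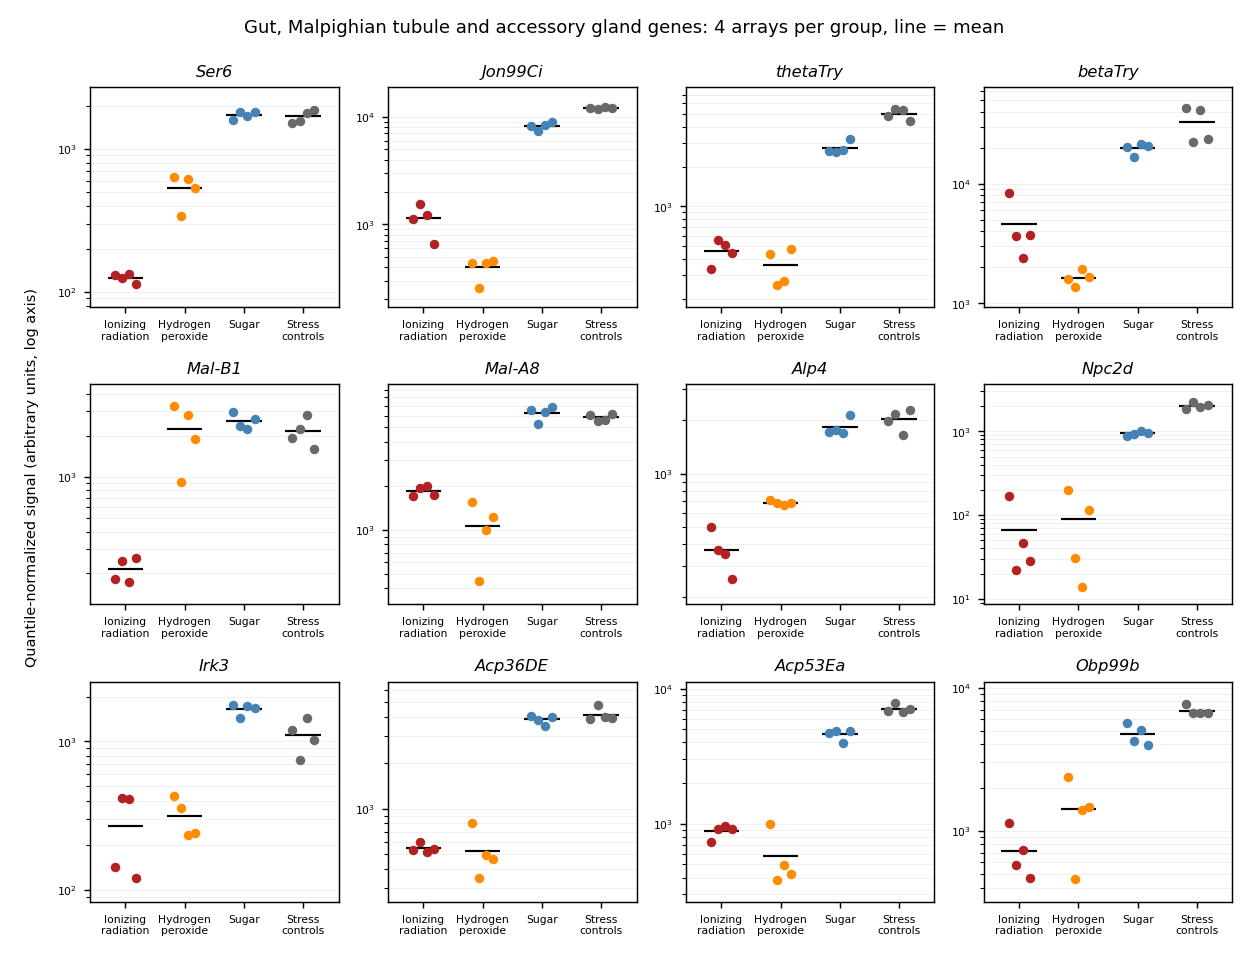
Each panel plots 1 gene on a log axis of quantile-normalized signal, with 1 point per array and the group mean as a line, for irradiated (red), hydrogen peroxide (orange), Sugar (blue) and Stress control (grey) flies. In all 12 panels the irradiated arrays lie below the Sugar arrays, and for Mal-B1 the peroxide arrays overlap the Sugar arrays.

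Of 36 odorant-binding proteins, 8 were called lower, where 8.27% of all genes were, and 1 was called higher, with a median of -0.22. Obp99b had 1131, 578, 728 and 464 units in irradiated flies, against 5669, 4263, 5009.6 and 3993 in Sugar flies (log2 fold change -2.70 ± 0.30, adjusted p = 2.3e-08). Of 14 neuron and synapse genes 0 were called, with 1 called lower without irradiated replicate 1. Of 14 photoreceptor genes 2 were called higher, where 6.37% of all genes were, namely Arr1 (0.60 ± 0.11) and rdgB (0.64 ± 0.16). Arr1 lost its call without irradiated replicate 2, 3 or 4 (0.56 to 0.70 over the 8 fits) and rdgB without irradiated replicate 2 or 3 or Sugar replicate 2 or 3 (0.50 to 0.76). A pair of genes with large falls belong to the head. Pdh, the retinol dehydrogenase of the pigment cells of the eye, had 481, 741, 739.6 and 568 units in irradiated flies, against 5431, 4589, 5038 and 4894 in Sugar flies (log2 fold change -2.92 ± 0.14, adjusted p = 3.7e-16), and the neuropeptide-like gene Nplp3 had 2016, 1494, 1461 and 1308 against 12914, 11307, 10733 and 13188 units (log2 fold change -2.92 ± 0.14). Both were also lower with radiation than with peroxide, with log2 differences of -1.94 ± 0.14 for Pdh and -1.53 ± 0.14 for Nplp3. The cuticle pigment gene family member yellow-e fell by 3.33 ± 0.34. Of 20 muscle genes, 2 were called higher and 2 lower, beside 6.37% higher and 8.27% lower of all genes. The flight muscle actin Act88F rose by 1.66 ± 0.24 and the muscle LIM protein Mlp60A by 1.09 ± 0.18, while flightin (fln, -2.13 ± 0.21) and the calcium sensor TpnC4 (-1.13 ± 0.18) fell. Of 14 female yolk and eggshell genes 0 were called, and of 13 blood cell markers 1 was called higher, the matrix gene Ppn (0.68 ± 0.18). Ppn lost its call without irradiated replicate 2 or 3 or Sugar replicate 2 or 3 (0.58 to 0.79 over the 8 fits), and its second probe set gave -0.21.

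Of 31 respiratory complex I genes, 6 were called lower and 0 higher, with a median of -0.41 and 27 of 31 negative. With replicate numbers as a block, 0 of them were called. The subunit ND-15 had 2212, 3239.7, 3204 and 2686 units in irradiated flies, against 4420.5, 5439, 4824 and 4987 in Sugar flies (log2 fold change -0.80 ± 0.12, adjusted p = 2.4e-06). Of 5 complex II genes 1 was called higher, SdhBL (0.65 ± 0.13, adjusted p = 4.1e-04), and 0 lower, and SdhBL lost its call without irradiated replicate 4 (0.58 to 0.75 over the 8 fits). Of 11 mitochondrial import genes 0 were called, with 1 called lower without irradiated replicate 4, Sugar replicate 2 or Sugar replicate 3. Complex III had 2 of 7 genes called lower (median -0.42), complex IV 1 of 11 (-0.33), the ATP synthase 3 of 16 (-0.41) and the mitochondrial ribosome 11 of 64 (-0.20), with 0 called higher in these 4 lists. Over all genes tested, 8.27% were called lower and 6.37% higher, and the count of complex IV was near the share called lower. Without irradiated replicate 3, or without irradiated replicate 4, 1 complex III gene was called, and the mitochondrial ribosome had 6 without irradiated replicate 3 or without Sugar replicate 4. The respiratory genes UQCR-Q (-0.73 ± 0.10), COX8 (-0.80 ± 0.09) and ATPsynbeta (-1.17 ± 0.12), the catalytic subunit of the ATP synthase, fell, as did the ribosomal protein genes mRpL33 (-1.13 ± 0.15) and mRpS30 (-1.01 ± 0.17). For ATPsynbeta, means were 2310 units with radiation, 5203 with Sugar and 3617 in Stress controls, and for mRpL33 709, 1583 and 1012. Sugar minus Stress controls was 0.52 for ATPsynbeta (adjusted p = 0.0042) and 0.63 for mRpL33 (adjusted p = 0.0056, limma). That difference was 0.07 for COX8 and 0.36 for mRpS30, neither past the threshold. Of 37 cytosolic ribosomal protein genes 0 were called in either direction at the 2 thresholds, with a median of 0.06. RpS21 (0.34 ± 0.08, adjusted p = 9.8e-04) and RpL17 (0.29 ± 0.08, adjusted p = 0.0065) passed the adjusted p and not the fold limit.

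Genes of fuel use were called in both directions. Of 9 glycolytic enzymes, 4 were called lower, where 8.27% of all genes were, and 0 higher, where 6.37% were. Gapdh1 had 9213, 11538, 11271 and 11093 units in irradiated flies, against 18889, 17656, 18658 and 20234 in Sugar flies (log2 fold change -0.81 ± 0.09, adjusted p = 1.1e-08), Pgi fell by 0.87 ± 0.12 and the hexokinase Hex-C by 1.03 ± 0.12. The fourth, Pgk (-0.70 ± 0.18), lost its call in 4 of 8 fits (without irradiated replicate 1, 3 or 4 or Sugar replicate 4, -0.81 to -0.65). Glys, glycogen synthase, fell (-1.42 ± 0.14). Of 11 fatty acid oxidation enzymes, 4 were called lower, where 8.27% of all genes were, and 0 higher. These 4 included the acyl-CoA synthetases Acsl (-1.54 ± 0.20) and bgm (-1.06 ± 0.12). Stress controls averaged 3189 units of Hex-C and 3671 of bgm. These levels lay nearer the irradiated means (2514 and 3114) than the Sugar means (5150 and 6510). For Gapdh1 and Acsl, Stress controls averaged 18687 and 8186 units, near the Sugar means of 18859 and 8870. Perilipin Lsd-1, which coats the lipid droplet, had 1279.6, 1033, 1258 and 1150.0 units in irradiated flies, against 4519, 3778, 4367 and 4367 in Sugar flies (log2 fold change -1.82 ± 0.16, adjusted p = 3.0e-10). The sugar-induced transcription factor sug fell (-2.11 ± 0.25), while Lpin (1.43 ± 0.13), SREBP (1.16 ± 0.12), Pepck2 (1.66 ± 0.16) and Pepck1 rose. Of the 27 genes of energy stores and fasting, 5 were called higher and 8 lower, beside 6.37% higher and 8.27% lower of all genes.

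For Pepck1, the first step of glucose synthesis from oxaloacetate, the Sugar level lay below that of flies on standard food. Irradiated flies had 41052, 46470.0, 48148 and 44427 units, against 17298, 15116, 16284 and 18721 in Sugar flies (log2 fold change 1.42 ± 0.10, adjusted p = 3.0e-12). Stress controls on standard food had 38860.3, 49719, 40319 and 52540.1 units, which overlap those of the irradiated flies, and Sugar minus Stress controls was -1.42 on the log2 scale (adjusted p = 4.2e-11). The larval serum protein gene Lsp2 was also highest in Stress controls, with 1019 ± 295 units in irradiated flies, 332 ± 82.0 in Sugar flies and 2429 ± 410.2 in Stress controls (ionizing radiation minus Sugar 1.50 ± 0.19). Gart averaged 872 ± 83.7 and RPA1 1127 ± 81.3 units in Stress controls, near their Sugar levels. At the same thresholds, 210 genes were higher (1.94%) and 131 lower (1.21%) in Sugar than in Stress control flies.

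**Figure D5:**
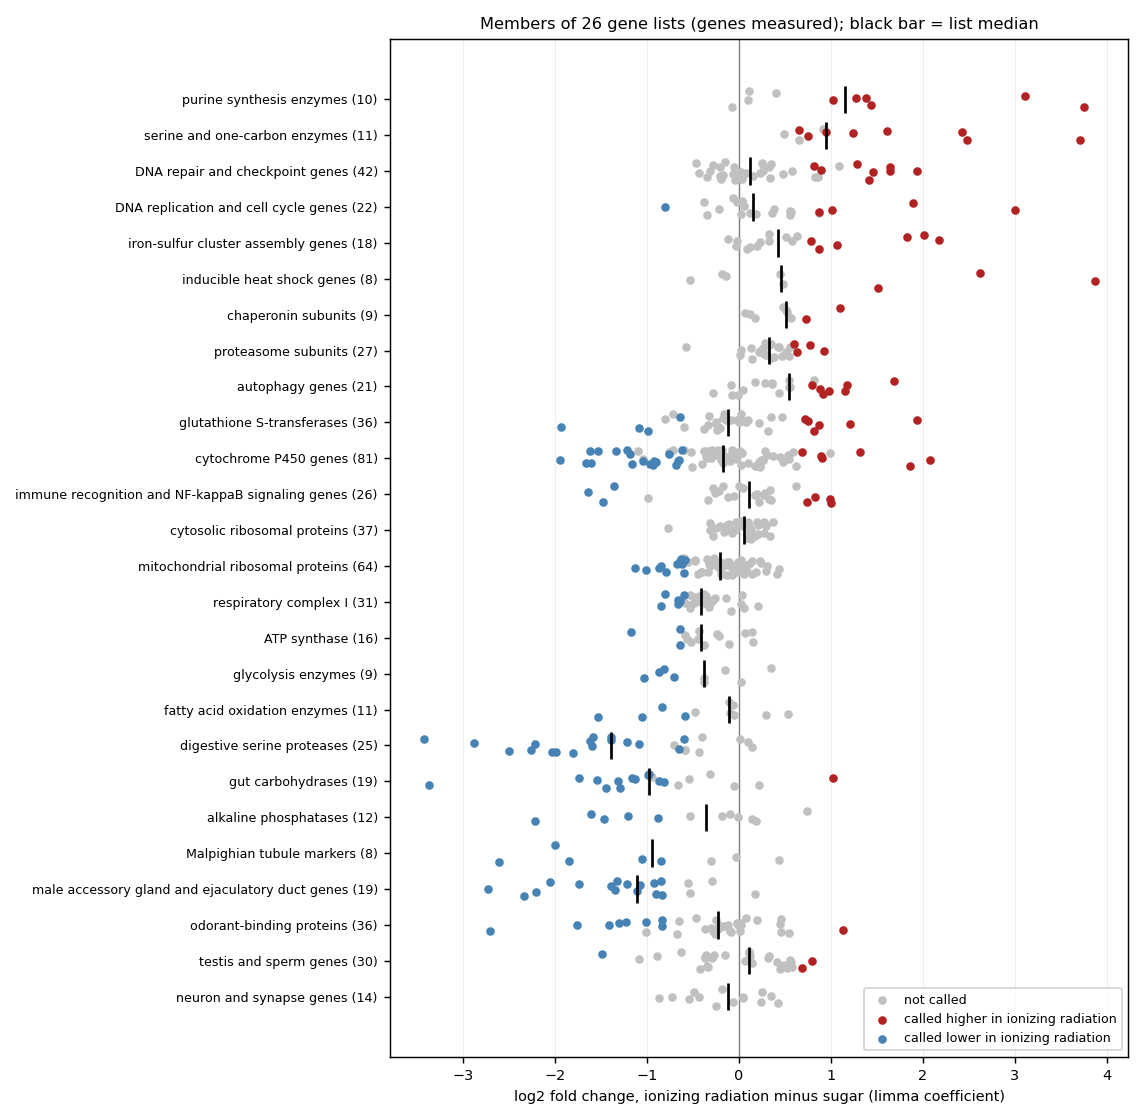
Each point is 1 gene of the list named at the left (genes measured in brackets), placed by its log2 fold change for ionizing radiation minus Sugar. Red points were called higher, blue points lower and grey points not called, and the black bar is the median of the list. Of the 26 lists plotted, purine synthesis (median 1.15) and serine and one-carbon enzymes (0.94) lie farthest to the right, and digestive serine proteases (-1.39) and accessory gland genes (-1.11) farthest to the left.

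Of 14 tricarboxylic acid cycle enzymes 1 was called lower, near the 8.27% of all genes, and 0 higher. That gene was Ogdh (-0.77 ± 0.15), with 7000 ± 650 units in irradiated flies, 11901 ± 482 in Sugar flies and 7617 ± 376 in Stress controls. For Ogdh, Sugar minus Stress controls was 0.64 (adjusted p = 0.0069, limma). Of 10 melanization genes 1 was called lower, the prophenoloxidase PPO1 (-1.13 ± 0.20), and 0 higher, with 2 lower without irradiated replicate 3. Of 9 circadian clock genes 1 was called higher, the repressor vri (0.95 ± 0.14), and 0 lower. Of 8 fat body genes 2 were called higher, where 6.37% of all genes were, and 2 lower, where 8.27% were, among them the lipid transfer particle gene Apoltp (0.77 ± 0.14) and the lipophorin gene apolpp (-0.89 ± 0.14), for which another probe set gave -1.72. Their summed signal was 18802 to 21269 units on the irradiated arrays, against 25150.2 to 28431 on the Sugar arrays and 30318 to 34667 in Stress controls. The sum largely follows apolpp, which alone averaged 9881 units with radiation, 18235 with Sugar and 22306 in Stress controls. The 2 genes called higher, Apoltp and Lsp2, went the other way, so the sums do not show a fall of the list as a whole. Of 32 aminoacyl-tRNA synthetases 3 were called higher and 1 lower, with a median of 0.09. The muscle genes summed to 111289 to 139187 units on the irradiated arrays, against 109216 to 117549 on the Sugar arrays, and the neuron genes to 8735 to 10318 against 9223 to 10095, so that both overlapped.

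Some genes of interest lack a single match in the platform's gene table and enter no count. They were named through the study's own annotation, and their adjusted p is over all 13966 probe sets. Xrp1, a transcription factor that p53 induces after irradiation in flies, had 16067, 15056, 15812 and 18808 units in irradiated flies, against 7456, 8429, 8258 and 7649 in Sugar flies (log2 fold change 1.04 ± 0.13, adjusted p = 1.6e-07). The telomere protein gene ver rose by 2.30 ± 0.32 (adjusted p = 1.1e-06). Thor, the translation repressor 4E-BP, had 37247, 39035, 44427 and 48861 against 14068, 16067, 15520.0 and 14246 units (log2 fold change 1.49 ± 0.13), and the chaperone Hsp83 had 16416, 22442, 21385 and 22442 against 12612, 11679, 12027 and 13319 units (log2 fold change 0.72 ± 0.13). Hsp67Bc had 154.9, 119.3, 185.3 and 201.9 units in irradiated flies, against 32.0, 34.6, 61.2 and 23.3 in Sugar flies (log2 fold change 1.42 ± 0.26, adjusted p = 9.1e-05, limma). The unfolded protein response factor Xbp1 rose by 1.00 ± 0.13 and the caspase inhibitor Diap1 by 0.68 ± 0.15. The antibacterial peptide gene AttA had 2237, 759, 1358 and 991 units in irradiated flies, against 307, 325, 226 and 357 in Sugar flies (log2 fold change 1.91 ± 0.52, adjusted p = 0.0061), with irradiated replicate 1 the highest. The storage protein gene Lsp1beta had 32.7, 21.3, 64.7 and 31.5 units in irradiated flies, against 1509, 965, 1447 and 1113 in Sugar flies (log2 fold change -4.10 ± 0.30). Hsp22 shares its 3 probe sets with CG4456, and these disagreed, with log2 fold changes of 3.47 ± 0.18, 0.73 ± 0.24 and -0.17 ± 0.16, so no direction is given for it.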

How the data were processed

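RNA of whole male flies was hybridized to DrosGenome1 arrays, 1 vial per array. The authors deposited MAS5 signals, an intensity per probe set on a linear scale, scaled per array. MAS5 is named in the submitters' processing notes, with no version. The amount of RNA labelled is stated differently in the labels and the methods and is not given here. The deposited Sugar arrays lie on a lower scale than the others, which quantile normalization over all 35 arrays removed. Values were then raised by 38.6 and converted to log2. A linear model with 8 group means was fitted to all 35 arrays with limma 3.58.1 in R 4.3.3 (27 residual degrees of freedom), and p-values were adjusted over 10845 genes. Each gene was represented by the probe set of highest mean signal that matched it alone. Probe sets that match several genes (327) or none (1196) in the platform table were left out of the counts. Calls required an adjusted p below 0.01 and a fold change of at least 1.5.

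Named genes were the 10 with the largest change in each direction without overlap, and genes from a rule for the lists. That rule took up to 4 called genes of largest change per list and direction, and gave more genes than the text names. Others are said in the text to have been named after their values were seen. Members of lists given as not called, those that lost a call when an array was left out, and genes outside the counts were likewise chosen with values known. The members and lists were chosen with earlier results of these data known. The labels do not state whether vials came from separate cohorts, so p-values measure a spread between vials. That spread was pooled over the 8 groups of all 35 arrays, not only the irradiated and Sugar vials. With only the 8 arrays compared in the fit, 607 genes were higher and 858 lower. Of these, 545 and 773 were also called with all 35 arrays in the fit. Replicate numbers did not pair arrays of the 2 groups, since the correlations of same-numbered residuals were -0.05, -0.05, -0.02 and 0.04. The fit was tested on simulated data. Other pseudocounts, normalizations, arrays in the fit, filters, probe set rules, tests, thresholds and left-out arrays were tried. Promoter motifs were not analysed here. The number of arrays limits the precision. Figures were drawn with matplotlib 3.10.9 in Python 3.11.15.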

Additional observations from a re-analysis of the deposited data

Results flagged for a closer look

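Among 344 sets of 4 arrays (172 genes named in the report in 2 groups), 26 (7.56%) held an array that stood apart by Dixon's test at its 95% critical value, where chance gives about 5%. Of the 16 in irradiated flies, 15 were replicate 1. The same array stood apart in its actin 3'/5' ratio (7.44), its GAPDH 3'/5' ratio (3.72) and its 18S rRNA control signal (2320 units).

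Irradiated replicate 1 was the highest of its group for Ahcy (13643 units), Apoltp (6618), CCT3 (1266), CCT5 (3686), COX8 (13703), Drs (12301), Glys (1399), Npc2d (169), Pepck2 (1502), Rpt4 (3514) and UQCR-Q (31586). It was the lowest for Acsl (1550.5 units), Arr1 (18889), Prps (12027) and mei-41 (35.3). Irradiated replicate 3 was the lowest for twe (129 units).

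Among the Sugar arrays, replicate 2 was the highest for Atg1 (1564 units) and CG5391 (90.4). Replicate 3 was the highest for Atg9 (2085 units) and l(2)efl (5933), and the lowest for Adss (4144) and GstE3 (5147). Replicate 4 was the highest for Alp4 (2141 units), Hex-C (5705) and thetaTry (3216), and the lowest for Trxr1 (5561).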

How the results depend on the processing

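The calls moved by more than 1.5 times in 2 settings. A fold change of at least 2 left 280 genes higher and 430 lower, fewer by construction. With the replicate number as a block, fitted on the 8 arrays compared, 291 were higher and 449 lower, of which 281 and 436 were also called without the block. Same-numbered arrays do not deviate together, so this block rests on numbers alone. Leaving out 1 array at a time gave 592 to 663 genes higher and 804 to 880 lower, and the other settings kept both counts within 1.5 times. No gene called in the report was called in the opposite direction in any setting run. For the 172 named genes, 3290 of 3435 values kept their direction and their side of the threshold. Another 109 lost and 11 gained the threshold, and 25 changed sign, all of them of genes not called. With 1 array left out, the log2 fold changes that changed sign spanned -0.081 to 0.19 for CycB, -0.12 to 0.14 for Jon66Ci, -0.093 to 0.32 for Jon66Cii, -0.086 to 0.021 for Lkr, -0.18 to 0.0031 for Prat, -0.052 to 0.013 for fh, -0.14 to 0.48 for mei-41, -0.013 to 0.22 for ras and -0.25 to 0.0032 for tefu. Trimmed-mean scaling gave -0.012 for Jon66Ci and 0.0076 for fh, cyclic loess gave -0.0050 for Jon66Ci, a lower pseudocount gave -0.00093 for mei-41, and quantile normalization over the 8 arrays gave -0.00017 for mei-41. The cause of these changes was not tested. Signals near the pseudocount limit what can be measured, since changes of dim genes are understated there. Scale and group cannot be told apart in the deposited Sugar signals. The search for promoter motifs was not run.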
